A study of Mus musculus with 24 samples.

Results

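The suppressor of cytokine signalling (SOCS) family was followed across 24 microarrays of mouse neurons stimulated with IL-1b or left unstimulated. Its members are Cish and Socs1 to Socs7, 8 genes in all. Every probe set whose platform gene symbol was exactly one of these names was taken, whatever its values, which gave 24 of the 45037 probe sets on the array. Of these, 20 passed a filter on dim values and were tested, among 30468 probe sets tested in all. The 4 that did not pass were 1441476_at and 1446085_at of Socs2, 1421274_at of Socs4 and 1438492_at of Socs7.

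The cells were embryonic cortical neurons of genotype Il1rap-/-, so all 8 groups lacked the gene that encodes the IL-1 receptor accessory protein AcP and its neuronal isoform AcPb. The cells had been made to express AcP, AcPb, both AcP and AcPb, or CD25. CD25 belongs to the IL-2 receptor, as its alpha chain, and is no part of the IL-1 receptor. Each of these 4 receptor arms was split between IL-1b, given at 10 ng/ml for 4 h, and its control, with 3 arrays in each of the 8 groups. The cells grew in serum-free medium with B-27 supplement. The labels do not name the vector or promoter that drove the receptors, and whether separate cultures lie behind the 3 arrays of a group is not said either. What the p-values measure is therefore the spread between arrays alone, and that spread may be technical.

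SOCS proteins are classical feedback inhibitors of the JAK-STAT pathway. A cytokine receptor activates JAK kinases, these activate STAT transcription factors, and STATs switch on SOCS genes, whose products then bind the receptor or the kinase and shut the signal down. Each SOCS protein carries an SH2 domain, which recognises phosphorylated tyrosine, and a SOCS box, which recruits elongins B and C and a cullin to form a ubiquitin ligase. SOCS1 and SOCS3 also carry a kinase inhibitory region that blocks JAKs directly. SOCS3 is best known for binding gp130, the shared receptor chain of the IL-6 family, whereas CIS and SOCS2 act mainly on STAT5-linked receptors such as that of growth hormone. The IL-1 receptor itself signals through MyD88 and NF-kB and not through JAKs.

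STAT dimers bind the palindrome TTCNNNGAA. The bases just upstream of the annotated start are shown for Socs3, the member whose values changed, and for Socs1 and Cish, which are textbook STAT targets and were not called in any comparison. Entries for 4 of the 8 members in the RefSeq promoter table (build GRCm38.p6) were used. The search for members left out 1 chromosome, a step not applied to the count over all windows. Any member window on that chromosome is therefore missing from the member counts below. Capitals mark a match to the palindrome, which was searched on both strands. Each sequence runs 5′ to 3′ on the strand of its gene and covers the 250 bases before the start. Socs3 lies at chr11:117969367-117969616 on the minus strand, Socs1 at chr16:10785537-10785786 on the minus strand and Cish at chr9:107296409-107296658 on the plus strand.
Socs3: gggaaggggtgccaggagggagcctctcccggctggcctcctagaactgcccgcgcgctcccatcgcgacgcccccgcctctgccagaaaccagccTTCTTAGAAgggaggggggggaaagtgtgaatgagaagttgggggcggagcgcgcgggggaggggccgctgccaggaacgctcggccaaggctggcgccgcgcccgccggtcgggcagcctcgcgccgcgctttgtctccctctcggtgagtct
Socs1: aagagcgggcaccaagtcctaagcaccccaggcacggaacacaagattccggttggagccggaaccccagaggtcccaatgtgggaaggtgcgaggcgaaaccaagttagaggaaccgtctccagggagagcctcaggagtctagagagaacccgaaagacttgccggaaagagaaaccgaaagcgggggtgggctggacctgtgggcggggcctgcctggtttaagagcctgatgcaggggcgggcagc
Cish: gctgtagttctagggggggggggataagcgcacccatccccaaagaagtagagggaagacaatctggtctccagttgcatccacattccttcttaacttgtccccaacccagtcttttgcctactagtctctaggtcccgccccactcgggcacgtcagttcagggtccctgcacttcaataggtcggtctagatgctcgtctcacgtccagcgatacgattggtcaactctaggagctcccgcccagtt
The window of Socs3 held 1 match, TTCTTAGAA, which begins 154 bases before the start. The windows of Socs1, Cish and Socs4 held none. Of 32851 promoter windows of this length, 7.02% held at least 1 match. The NF-kB consensus motif was in 3.90% of the windows and in 0 of the 4 member windows. These are matches of letters, and binding was not measured.

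Values are probe set intensities on a linear scale, as deposited. Array medians lay between 55 and 66.4 units, and between 16.4% and 18.2% of an array's values were negative. Within groups, arrays correlated at a mean of 0.967 to 0.984, and no array pair held identical values. Il1rap averaged between 111 and 136 units in all 8 groups on its brightest probe set, and Il2ra, the gene of CD25, between 19.2 and 37.7 units. The sources used here do not say where these probes lie relative to the deleted exons and the introduced sequences, so they check no label. Neuron markers were bright in every group, Rbfox3 averaging 4271 to 4900 units and Tubb3 4231 to 4819 units. Some glial markers were bright as well, the astrocyte marker Gja1 averaging 3398 to 3991 units and the oligodendrocyte marker Olig1 2802 to 4131 units. Others were dimmer, such as the astrocyte marker S100b at 149 to 219 units. The arrays do not show which cells gave the signal of a gene. The description labels end in an array code, which was 21B for the AcP, AcPb and CD25 arms. In the AcP+AcPb arm it was 22B for 2 of the control arrays and 23B for the third control array and all IL-1b arrays. Comparisons of that arm with another cannot be told apart from the code.

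Socs3 was the member that responded to IL-1b. On its brightest probe set it averaged 164 units with IL-1b and 53.6 units without in AcP neurons, and 159 and 72.4 units in AcP+AcPb neurons, while AcPb and CD25 neurons gave overlapping values. Only the rise in AcP neurons, on 1 of the 3 Socs3 probe sets, passed the test.

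On 1455899_x_at, the brightest Socs3 probe set, AcP neurons had 166, 188 and 136 units with IL-1b, against 45.2, 44.8 and 70.8 units with the control stimulus. The AcP+AcPb neurons had 135, 153 and 189 units with IL-1b, against 55.6, 58 and 104 units in controls. In both arms the lowest IL-1b array was above the highest control array. In AcPb neurons the IL-1b arrays read 58.3, 94.9 and 79.8 units, against 67, 59.9 and 62 units in controls. In CD25 neurons the IL-1b arrays read 312, 340 and 683 units, against 453, 701 and 592 units in controls. IL-1b and control arrays overlapped in the AcPb and CD25 arms, and the CD25 IL-1b arrays were the most scattered, with replicate 3 well above the others.

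**Figure D1:**
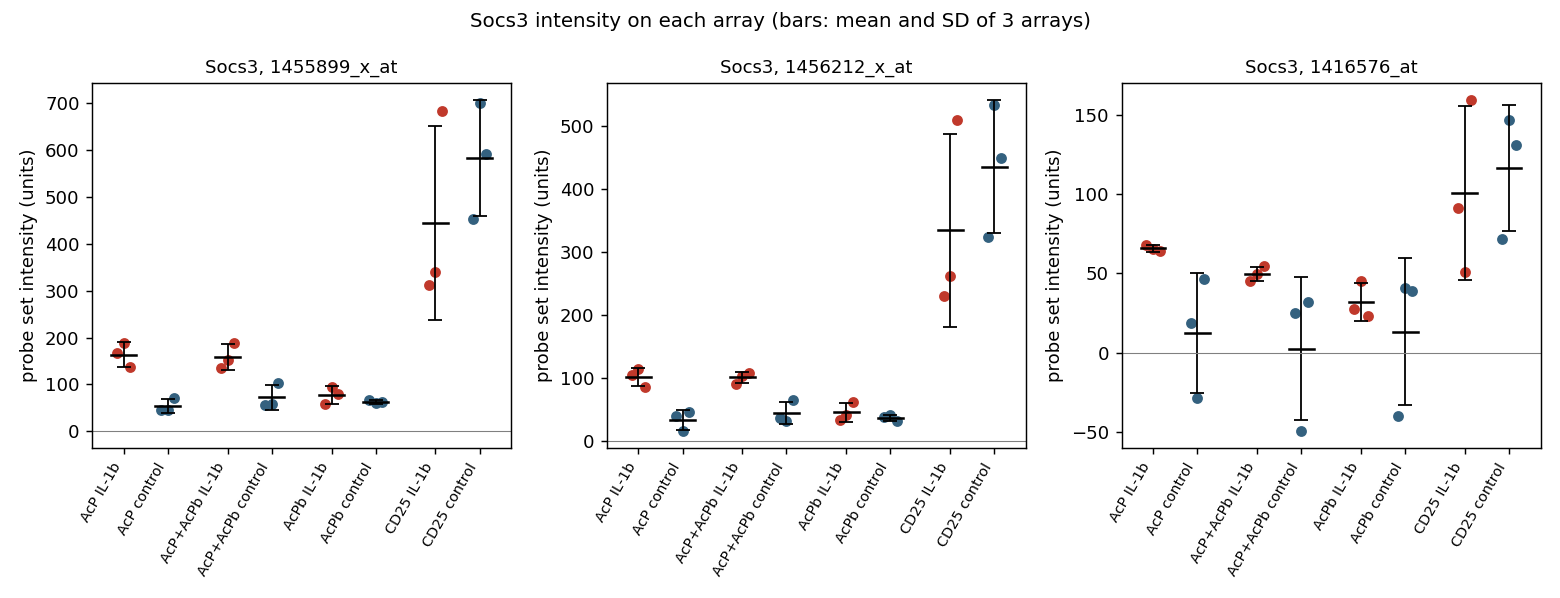
Socs3 intensity on each of 24 arrays, with 1 panel for each of its 3 probe sets. The y axis is probe set intensity in array units on a linear scale. Red points are IL-1b arrays and blue points control arrays, and bars give the mean and SD of 3 arrays. On 1455899_x_at the 3 AcP IL-1b arrays sit between 136 and 188 units and the 3 AcP controls between 44.8 and 70.8 units, while both CD25 groups sit above all of them.

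The tests were run with limma on log2(intensity + 16), with negative values set to 0. Benjamini-Hochberg adjustment covered all 30468 probe sets of a comparison, and a probe set was called at an adjusted p under 0.05. Changes on this scale understate those of dim probe sets, and values after ± are SEs for log2 changes and SDs for intensities. In AcP neurons, 1455899_x_at averaged 164 ± 26.1 units with IL-1b and 53.6 ± 14.9 units without (n = 3 each), a log2 change of 1.38 ± 0.26 with a limma adjusted p of 0.02. This was 1 of the 20 member probe sets tested, or 5%, against 0.404% of all probe sets called in either direction and 0.302% called higher. By size of log2 change it stood at place 84 from the top of the 30468.

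The call of 1455899_x_at depended on single arrays. The limma adjusted p was 0.1 without AcP control replicate 1, 0.11 without AcP control replicate 2, 0.075 without AcP IL-1b replicate 1 and 0.13 without AcP IL-1b replicate 2. The log2 change in those fits was 1.30, 1.29, 1.36 and 1.28, in the same order. With array weights the adjusted p was 0.16, and with only the AcP arrays in the fit it was 0.12.

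The other Socs3 probe sets had higher values with IL-1b too, without passing the test. On 1456212_x_at, AcP neurons had 105, 113 and 85 units with IL-1b, against 39.2, 15 and 45.9 units in controls, with a log2 change of 1.30 ± 0.29 and a limma adjusted p of 0.059. On 1416576_at they had 68.2, 65.5 and 63.9 units with IL-1b, against 18.8, -28.4 and 46.4 units in controls, with a log2 change of 1.33 ± 0.52 and a limma adjusted p of 0.48. Without AcP control replicate 2, the array below 0, that change of Socs3 was 0.81. The IL-1b arrays were above the control arrays on both, and the third probe set was dim, with 1 control value below 0. The suffix _x marks probe sets whose probes may match other transcripts, so 1455899_x_at and 1456212_x_at may share signal from another gene. All 3 probe sets carry the same symbol and are not independent measurements.

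In AcP+AcPb neurons none of the 20 member probe sets was called, against 0.256% of all, and 3 of the 20 had an unadjusted limma p under 0.05, against 9.78% of all. The log2 change of Socs3 was 1.01 ± 0.26 on 1455899_x_at with a limma adjusted p of 0.15. It was 0.99 ± 0.29 on 1456212_x_at (adjusted p = 0.22) and 1.05 ± 0.52 on 1416576_at (adjusted p = 0.53), the last being 0.56 without control replicate 2. Each probe set had its 3 IL-1b arrays above its 3 control arrays. The value moved with the array code: with the code as a block, which leaves control replicate 3 as the control array of code 23B, the log2 change of 1455899_x_at was 0.54. That control array read 104 units and the other controls 55.6 and 58 units. Without it the log2 change was 1.25.

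In AcPb neurons 0 of 20 member probe sets were called, against 0.00985% of all, with 2 of the 20 at an unadjusted p under 0.05, against 10.1% of all. Socs3 differed by 0.23 ± 0.26 on 1455899_x_at (limma adjusted p = 0.84), 0.19 ± 0.29 on 1456212_x_at and 0.35 ± 0.52 on 1416576_at. In CD25 neurons limma called 0 of 20 member probe sets and 0% of all, with 2 of the 20 at an unadjusted p under 0.05, against 5.62% of all. Socs3 differed there by -0.44 ± 0.26 on 1455899_x_at (limma adjusted p = 0.88), -0.42 ± 0.29 on 1456212_x_at and -0.25 ± 0.52 on 1416576_at. On 1455899_x_at it was -0.79 without CD25 IL-1b replicate 3, the highest of its group, and -0.24 without CD25 IL-1b replicate 1. The values of the CD25 arm ran below 0 and those of the AcPb arm above it, with intervals that hold 0 in both.

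Whether the arms responded differently was tested as a difference of log2 changes. For 1455899_x_at of Socs3 the response of AcP neurons minus that of CD25 neurons was 1.82 ± 0.37, with a 95% interval of 1.04 to 2.60 and a limma adjusted p of 0.055. No member was called in this comparison, against 0.19% of all probe sets, and 6 of the 20 had an unadjusted p under 0.05, against 8.5% of all. That count is of probe sets and not of separate genes, and those of Socs3 are not independent of each other. The call turned on single arrays here too. Without CD25 IL-1b replicate 3 the difference was 2.17 (limma adjusted p = 0.0028), without AcP control replicate 3 it was 1.99 (adjusted p = 0.021) and without CD25 control replicate 1 it was 1.99 (adjusted p = 0.049).

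The response of AcPb neurons minus that of AcP neurons was -1.15 ± 0.37 on 1455899_x_at, with a 95% interval of -1.93 to -0.37 and a limma adjusted p of 0.42. No member was called, against 0.148% of all probe sets, with 2 of the 20 at an unadjusted p under 0.05, against 7.84% of all. For AcP+AcPb minus AcP it was -0.36 ± 0.37, with an interval of -1.14 to 0.41 (limma adjusted p = 1). That interval holds 0 and reaches from a smaller to a larger Socs3 response in the neurons with both chains. For AcP+AcPb minus AcPb it was 0.79 ± 0.37, with an interval of 0.01 to 1.56 (limma adjusted p = 0.99). Limma called 0 of 20 members in each of these comparisons, against 0.00328% and 0.0919% of all probe sets, with 1 of the 20 at an unadjusted p under 0.05 in each, against 5.12% and 5.02% of all.

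**Figure D2:**
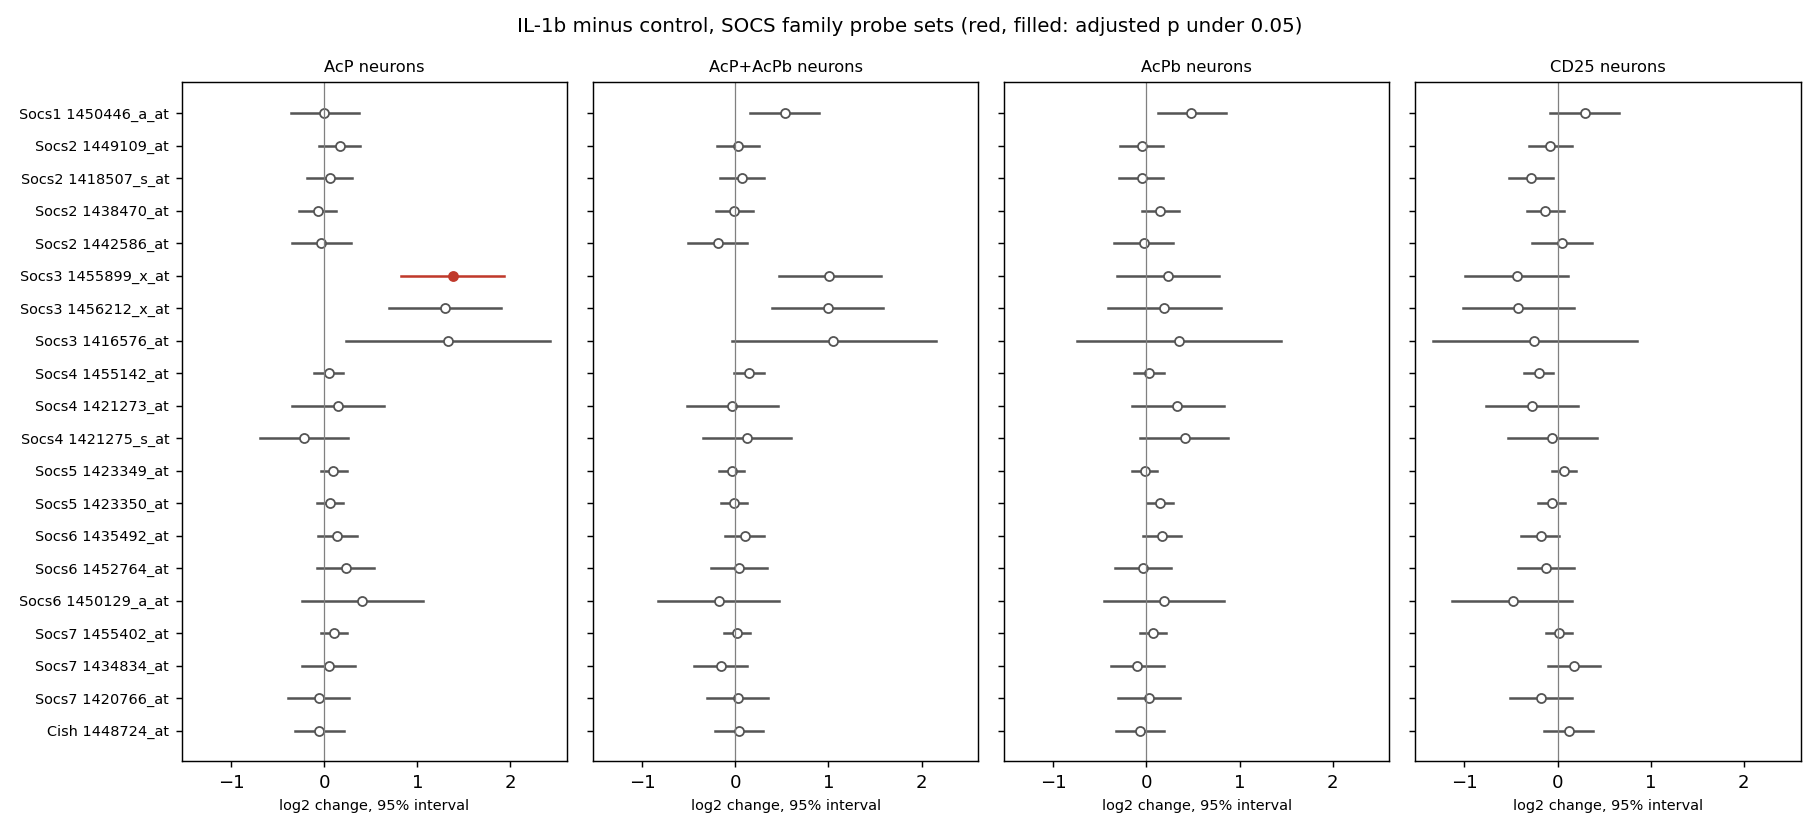
Log2 change with IL-1b over control for the 20 tested SOCS family probe sets, with 1 panel for each receptor arm. Points are limma estimates on log2(intensity + 16), lines are 95% intervals, and filled red points are called at an adjusted p under 0.05. The 3 Socs3 probe sets lie between 1.30 and 1.38 in AcP neurons and between 0.99 and 1.05 in AcP+AcPb neurons, and 1455899_x_at in AcP neurons is the one filled point.

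The other 17 tested probe sets showed no called response to IL-1b in any arm. Their log2 changes ran from -0.22 to 0.41 in AcP neurons, from -0.19 to 0.53 in AcP+AcPb neurons, from -0.10 to 0.48 in AcPb neurons and from -0.48 to 0.29 in CD25 neurons. With Socs3 included, the member median was 0.08 in AcP neurons, 0.03 in AcP+AcPb neurons, 0.11 in AcPb neurons and -0.12 in CD25 neurons. The median over all tested probe sets was between -0.01 and 0.01 in each of these comparisons. A member that is dim in controls passes the filter more readily where it rises, so these medians describe the 20 that passed.

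Socs1, which blocks JAK kinases after interferon signalling, was dim. AcP neurons had 21.1, 12.3 and 14.2 units with IL-1b, against 18.9, 17.1 and 11.2 units in controls, with a log2 change of 0.00 ± 0.17. The AcP+AcPb neurons had 34.5, 21.5 and 33.8 units with IL-1b, against 23.5, 16.4 and 8.43 units in controls. The AcPb neurons had 37.2, 33.4 and 30.9 units with IL-1b, against 26.4, 18.5 and 14.8 units in controls. The CD25 neurons, which lack both chains, had 31.2, 29.2 and 35.2 units with IL-1b, against 16.3, 24.6 and 29.6 units in controls, with a log2 change of 0.29 ± 0.17 (limma adjusted p = 0.88). IL-1b arrays lay above control arrays in the AcPb arm and overlapped them in the other 3 arms. The log2 change was 0.53 ± 0.17 in AcP+AcPb neurons (limma adjusted p = 0.29) and 0.48 ± 0.17 in AcPb neurons (limma adjusted p = 0.36). The probe set passed the dim filter through 3 arrays, 1 each of the AcPb, AcP+AcPb and CD25 groups given IL-1b, so the other 21 arrays lay below the threshold of the filter.

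Cish, the founding member of the family and an inhibitor of STAT5 signalling, had 451, 471 and 482 units in AcP neurons with IL-1b, against 523, 535 and 404 units in AcP controls. Its log2 change was -0.05 ± 0.12 in AcP, 0.04 ± 0.12 in AcP+AcPb, -0.07 ± 0.12 in AcPb and 0.12 ± 0.12 in CD25 neurons, and IL-1b and control arrays overlapped in all 4 arms.

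Socs2, which restrains growth hormone signalling, was bright on 1449109_at and 1418507_s_at. On 1449109_at AcP neurons had 1382, 1436 and 1485 units with IL-1b, against 1384, 1054 and 1422 units in controls, with a log2 change of 0.17 ± 0.11 (limma adjusted p = 0.75). Across the 4 arms, the responses of its 4 tested probe sets ran from -0.29 to 0.17. The lower end was 1418507_s_at in CD25 neurons, with 913, 1006 and 1273 units with IL-1b, against 1155, 1405 and 1314 units in controls (limma adjusted p = 0.88). IL-1b and control arrays of Socs2 overlapped on all 4 probe sets in every arm.

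Socs4 and Socs5 are close relatives with long N-terminal regions, linked to control of the epidermal growth factor receptor. Socs4 was brightest on 1455142_at, where AcP+AcPb neurons had 357, 365 and 378 units with IL-1b, against 354, 299 and 335 units in controls. The groups did not overlap, but the log2 change of 0.15 ± 0.07 had a limma adjusted p of 0.53. Socs5 was brightest on 1423349_at, where AcP neurons had 1458, 1590 and 1529 units with IL-1b, against 1423, 1533 and 1304 units in controls (log2 change 0.10 ± 0.06, limma adjusted p = 0.71).

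Socs6 and Socs7 have known roles in receptor tyrosine kinase and insulin signalling. On 1435492_at of Socs6, AcP neurons had 293, 270 and 271 units with IL-1b, against 234, 249 and 269 units in controls. The lowest IL-1b array was just above the highest control array, and the log2 change was 0.14 ± 0.10 (limma adjusted p = 0.77). Another Socs6 probe set, 1450129_a_at, gave the 0.41 in AcP neurons and the -0.48 in CD25 neurons that bound the ranges above. It averaged 107 ± 26.7 units with IL-1b and 84 ± 48.5 units without in AcP neurons. In CD25 neurons it averaged 70.8 ± 15.3 and 105 ± 22.9 units, and stimulated and control arrays overlapped in both arms. Socs7 was bright on 1455402_at, with 1952, 1760 and 1844 units in AcP neurons given IL-1b, against 1690, 1553 and 1909 units in AcP controls (log2 change 0.11 ± 0.07, limma adjusted p = 0.72).

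**Figure D3:**
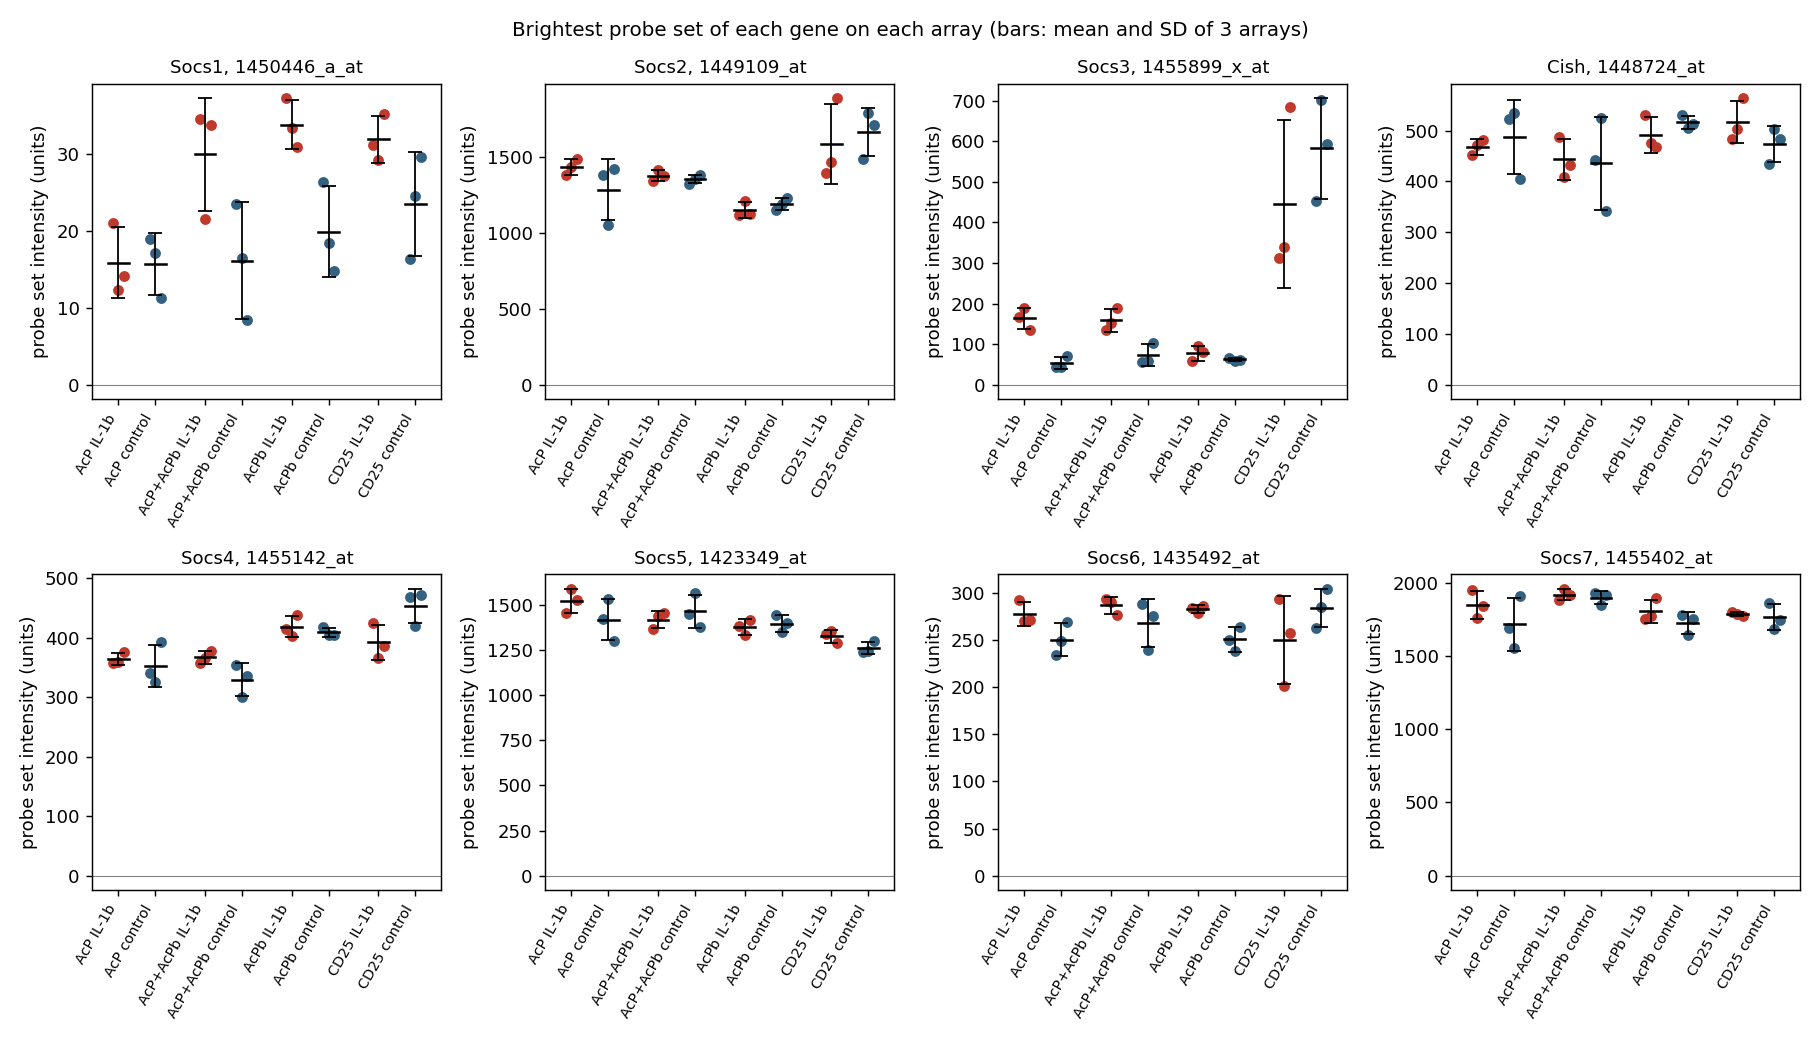
Intensity on each array for the brightest probe set of Cish and of each Socs gene, with the mean and SD of 3 arrays as bars. Red points are IL-1b arrays and blue points control arrays, on a linear scale in array units, with 1 panel for each gene. Cish sits between 342 and 564 units across all 24 arrays, and Socs1 between 8.43 and 37.2 units.

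Non-overlapping arrays were counted as a description. The 3 IL-1b arrays lay above the 3 controls on 4 of 20 member probe sets in AcP neurons, namely the 3 of Socs3 and 1435492_at of Socs6, against 4.43% of all tested probe sets. In AcP+AcPb neurons this held for 4 of 20, the 3 of Socs3 and 1455142_at of Socs4, against 9.72% of all. In AcPb neurons it held for 4 of 20, 1 each of Socs1, Socs4, Socs5 and Socs6, against 10.3% of all. The Socs1 and Socs4 probe sets among these passed the dim filter through IL-1b arrays alone, with 0 control arrays above its threshold, so their place in this count follows in part from the filter. In CD25 neurons it held for 0 of 20, against 7.06% of all.

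Before any stimulus, Socs3 separated the CD25 arm from the rest. Without IL-1b it was 6.86 to 8.59 times lower on the intensity + 16 scale in the AcP, AcPb and AcP+AcPb neurons than in the CD25 neurons, on 1455899_x_at. Socs2 and Socs4 were lower by far smaller amounts, Socs4 being called on 1455142_at alone and not in AcPb neurons. Socs5 was called higher on one probe set in AcP+AcPb neurons and lower on another in AcPb neurons. Cish, Socs1, Socs6 and Socs7 were not called. All 3 comparisons use the same 3 CD25 control arrays. The controls of every arm also enter the responses above, and those of CD25 and AcP both enter the response difference of AcP minus CD25.

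On 1455899_x_at the controls read 45.2, 44.8 and 70.8 units in AcP neurons, 67, 59.9 and 62 units in AcPb neurons and 55.6, 58 and 104 units in AcP+AcPb neurons, against 453, 701 and 592 units in CD25 neurons. The highest of the 9 arrays without CD25, at 104 units, was well below the lowest CD25 array, at 453 units. The log2 difference from CD25 was -3.10 ± 0.26 for AcP (limma adjusted p = 6.1e-07), -2.90 ± 0.26 for AcPb (adjusted p = 3.2e-06) and -2.78 ± 0.26 for AcP+AcPb (adjusted p = 2.7e-06). It ranked 21, 15 and 11 from the most negative of 30468 probe sets in these comparisons.

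On 1456212_x_at of Socs3 the controls read 39.2, 15 and 45.9 units in AcP neurons, 37.8, 40.3 and 31.6 units in AcPb neurons and 36.8, 31.6 and 64.2 units in AcP+AcPb neurons, against 323, 534 and 448 units in CD25 neurons. The log2 differences were -3.22 ± 0.29, -3.08 ± 0.29 and -2.91 ± 0.29 for AcP, AcPb and AcP+AcPb, with limma adjusted p of 1.1e-06, 4.2e-06 and 4.9e-06. Both _x probe sets stayed called under every alternative run. The third, 1416576_at, differed by -1.97 ± 0.52 in AcP neurons (limma adjusted p = 0.021), -1.80 ± 0.52 in AcPb neurons (adjusted p = 0.058) and -2.01 ± 0.52 in AcP+AcPb neurons (adjusted p = 0.015). Several control values of that probe set were below 0, and its calls were lost without AcP control replicate 2 (-1.46, adjusted p = 0.12), without AcP+AcPb control replicate 2 (-1.52, adjusted p = 0.1), and in both arms without CD25 control replicate 2 (-1.80 and -1.84) or 3 (-1.87 and -1.91).

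Among the 8 groups, 1455899_x_at was brightest in CD25 controls, at 582 ± 124 units, and next in CD25 neurons with IL-1b, at 445 ± 207 units, and these overlapped. AcP neurons with IL-1b followed at 164 ± 26.1 units and AcP+AcPb neurons with IL-1b at 159 ± 27.7 units, which overlapped each other and stood apart from the CD25 groups. The lowest 4 were AcPb neurons with IL-1b at 77.7 ± 18.4 units, AcP+AcPb controls at 72.4 ± 27.1 units, AcPb controls at 62.9 ± 3.63 units and AcP controls at 53.6 ± 14.9 units. These 4 were below the stimulated arms that held AcP and overlapped between neighbours. Socs3 in AcP neurons given IL-1b was below its level in CD25 neurons without any stimulus. For the 21 other member probe sets, 19 had no pair of neighbouring groups apart in this ordering and 2 had 1 such pair. These 21 include the probe sets below the dim filter. The ordering was made for members only, so there is no share over all probe sets to set beside these counts.

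Of the 20 tested probe sets, limma called 6 in AcP minus CD25 without stimulus, all lower, against 10.3% of all probe sets in either direction and 6.13% lower. In AcPb minus CD25 it called 6, all lower, against 4.59% in either direction and 3.42% lower. In AcP+AcPb minus CD25 it called 5 lower and 1 higher, against 14.3% in either direction, 8.92% lower and 5.35% higher. The member medians were -0.26, -0.16 and -0.15 for AcP, AcPb and AcP+AcPb, against 0.02, 0.00 and 0.00 over all tested probe sets. Several of the called probe sets belong to the same gene, so the counts are of probe sets and not of separate genes.

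Socs2 was lower on 1418507_s_at, with 909, 838 and 1048 units in AcP, 793, 881 and 954 units in AcPb and 946, 923 and 959 units in AcP+AcPb neurons, against 1155, 1405 and 1314 units in CD25 neurons. All 9 arrays were below the 3 CD25 arrays. The log2 difference was -0.47 ± 0.11, -0.55 ± 0.11 and -0.44 ± 0.11 for AcP, AcPb and AcP+AcPb, with limma adjusted p of 0.012, 0.0069 and 0.014. On 1449109_at it was -0.38 ± 0.11 for AcP (limma adjusted p = 0.032), -0.47 ± 0.11 for AcPb (adjusted p = 0.015) and -0.29 ± 0.11 for AcP+AcPb (adjusted p = 0.079). On 1438470_at AcPb neurons alone were called, at -0.46 ± 0.10 (limma adjusted p = 0.0083), and 1442586_at was not called in any arm.

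Some Socs2 calls also rested on single arrays, while that of 1418507_s_at in AcPb neurons held with each array left out. That of 1438470_at was at an adjusted p of 0.05 without AcPb control replicate 2 (-0.40). For 1418507_s_at the AcP and AcP+AcPb differences were -0.40 and -0.38 without CD25 control replicate 2 (limma adjusted p = 0.062 and 0.065), -0.39 without AcP control replicate 2 (adjusted p = 0.064) and -0.43 without AcP+AcPb control replicate 2 (adjusted p = 0.054). For 1449109_at the AcP difference was -0.24 without AcP control replicate 2 (limma adjusted p = 0.18), -0.32 without CD25 control replicate 2 (adjusted p = 0.13) and -0.35 without CD25 control replicate 3 (adjusted p = 0.1). Its AcPb difference was -0.42 and -0.45 without those CD25 arrays (limma adjusted p = 0.077 and 0.063) and -0.45 without AcPb control replicate 1 (adjusted p = 0.063).

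Socs4 was lower on 1455142_at, with 340, 326 and 393 units in AcP and 354, 299 and 335 units in AcP+AcPb neurons, against 468, 420 and 472 units in CD25 neurons. The log2 difference was -0.35 ± 0.07 for AcP (limma adjusted p = 0.0051) and -0.44 ± 0.07 for AcP+AcPb (adjusted p = 0.00073), and these calls held with each array left out in turn. With only the AcP and CD25 controls in the fit, the AcP call was lost (limma adjusted p = 0.21). AcPb neurons read 418, 404 and 405 units, between the other arms and CD25, and were not called. The direct comparison of AcPb with AcP controls gave 0.21 ± 0.07 for this probe set (limma adjusted p = 0.31). So the AcPb arm was not shown to differ from the AcP arm.

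Socs5 went in opposite directions on its 2 probe sets. On 1423349_at AcP+AcPb controls read 1449, 1566 and 1382 units, against 1240, 1245 and 1302 units in CD25 neurons, a log2 difference of 0.21 ± 0.06 (limma adjusted p = 0.03). On 1423350_at AcPb controls read 435, 395 and 418 units, against 490, 511 and 482 units in CD25 neurons, a difference of -0.24 ± 0.07 (limma adjusted p = 0.046). Neither call held when arrays were left out. The adjusted p of 1423349_at was between 0.05 and 0.16 with any 1 of its 6 arrays left out except AcP+AcPb control replicate 3, and the log2 difference was then 0.16 to 0.23. That of 1423350_at was between 0.065 and 0.16 with any 1 of its 6 arrays left out, at a difference of -0.27 to -0.21. With array medians centred the adjusted p was 0.1 for 1423349_at and 0.14 for 1423350_at.

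**Figure D4:**
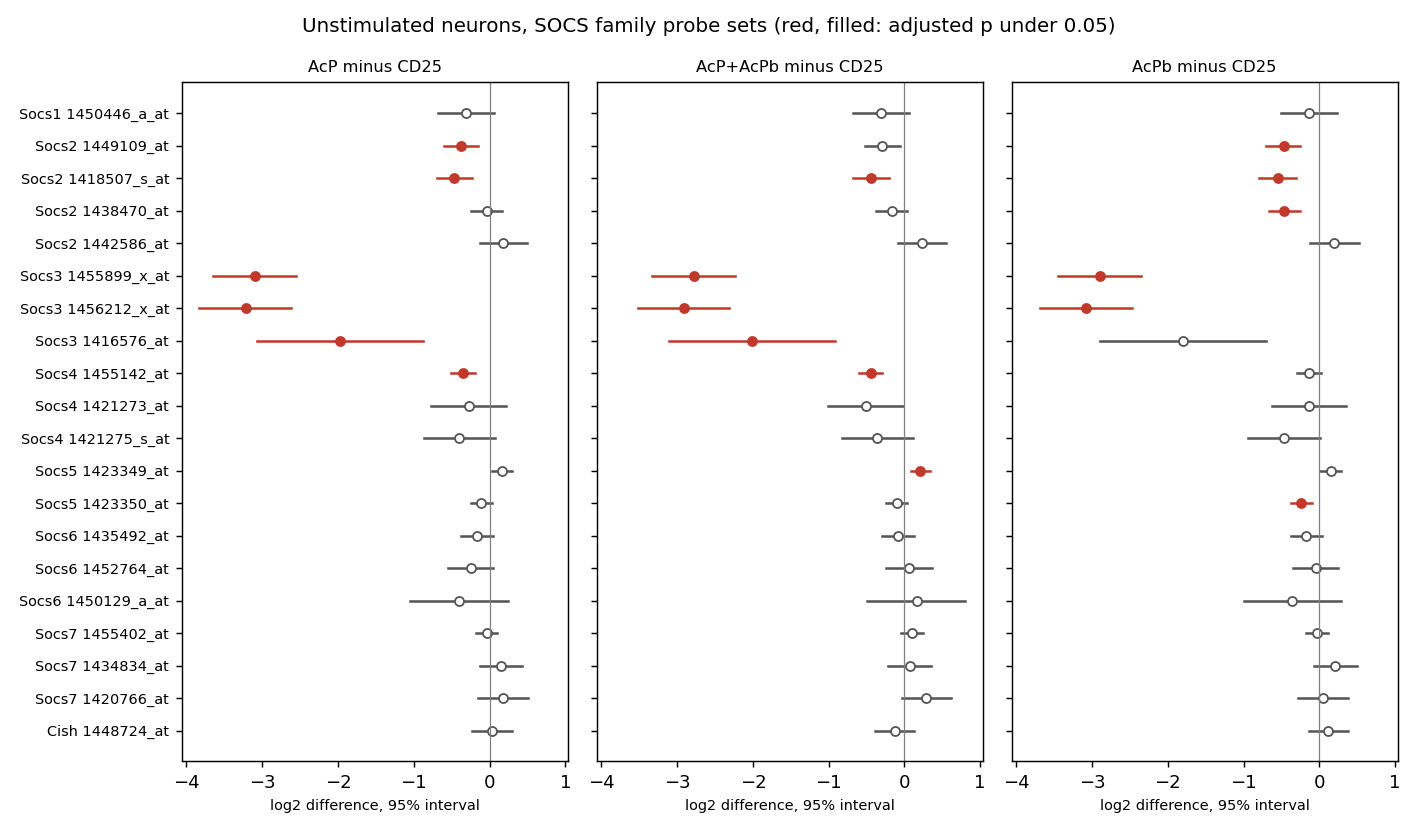
Log2 difference between unstimulated neurons of each receptor arm and unstimulated CD25 neurons for the 20 tested SOCS family probe sets. Points are limma estimates on log2(intensity + 16), lines are 95% intervals and filled red points are called at an adjusted p under 0.05. Both _x probe sets of Socs3 lie between -3.22 and -2.78 in all 3 panels, and no other gene goes below -0.55.

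Comparing the arms without CD25 with each other gave no called member. AcPb minus AcP controls had 0 of 20 called by limma, against 0.42% of all probe sets, with 2 of the 20 at an unadjusted p under 0.05, against 10.4% of all. AcP+AcPb minus AcP controls had 0 of 20 called by limma, against 0.181% of all, with 2 of the 20 at an unadjusted p under 0.05, against 10.7% of all. For Socs3 on 1455899_x_at the differences were 0.20 ± 0.26, with a 95% interval of -0.35 to 0.75, and 0.32 ± 0.26, with an interval of -0.22 to 0.87.

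Some markers of other cells differed between the CD25 arm and the rest. The summed intensity of 8 progenitor markers ran from 5452 to 6670 units in AcP, 6919 to 7419 in AcPb and 6072 to 7213 in AcP+AcPb controls, against 10417 to 11231 in CD25 controls. Vim, an intermediate filament gene, was the largest part of this sum in each of these groups, averaging 3075 units in AcP, 3728 in AcPb and 3701 in AcP+AcPb controls, against 6567 in CD25 controls. Not all of its members ran that way: Hes5, a Notch target, averaged 346, 260 and 297 units in these arms, against 143 units in CD25 controls. Of the 8, limma called 4, 3 and 5 lower and 1 higher in each of AcP, AcPb and AcP+AcPb minus CD25. Over all probe sets tested, 6.13%, 3.42% and 8.92% were called lower and 4.16%, 1.18% and 5.35% higher, in the same order. The sum of 11 endothelial and mural markers ran from 945 to 1092 units in AcP, 1158 to 1436 in AcPb and 1051 to 1416 in AcP+AcPb controls, against 1859 to 2571 in CD25 controls. Acta2, smooth muscle actin, carried most of it, at 635, 838 and 827 units, against 1741 units in CD25 controls. The endothelial genes Pecam1 and Cldn5 averaged below 0 in CD25 controls, and Kdr averaged 82.5, 83.9 and 81.1 units, against 79.4 units there. Neither sum overlapped between CD25 and the other arms. Gfap, the intermediate filament of astrocytes, averaged 482 units in AcP, 568 in AcPb and 1360 in AcP+AcPb controls, against 1935 in CD25 controls. Other astrocyte markers ran the other way. Slc1a2 averaged 3435, 2869 and 3181 units in these arms against 2173, and Aldoc 4864, 3956 and 4695 units against 3501. Of the 10 astrocyte markers, limma called 3, 0 and 2 higher and 3, 2 and 1 lower, in the same order. The sums of these 10 overlapped, at 19403 to 21319, 19280 to 21630 and 20701 to 22776 units against 16265 to 22591. The sums of 10 neuron markers overlapped too, at 41471 to 48270, 41965 to 43441 and 41667 to 43536 units against 40308 to 43190. Those of 9 oligodendrocyte markers also overlapped, at 6656 to 7421, 6681 to 7698 and 4740 to 6070 units against 5034 to 7103. The sums of 11 microglia markers ran from 450 to 746 units in AcP, 567 to 1021 in AcPb and 346 to 449 in AcP+AcPb controls, against 544 to 799 in CD25 controls, so the AcP+AcPb arm was apart from CD25. Csf1r, the receptor for colony stimulating factor 1, made up most of it, at 277 to 636 units over the 8 groups. Of the others, Aif1, Tmem119 and C1qa averaged below 0 in all 8 groups, Cx3cr1 averaged at most 3.66 units and Cd68 39.4 to 56 units. In such mixed samples, fewer cells of a type and less RNA per cell cannot be told apart, and the part of these cells in the Socs3 difference was not tested.

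The progenitor and endothelial and mural sums overlapped between stimuli within the AcP arm. Progenitor sums ran from 5875 to 6317 units with IL-1b, against 5452 to 6670 units in AcP controls, and endothelial and mural sums from 955 to 1228 units, against 945 to 1092 units. In AcP+AcPb neurons the progenitor sums were 6375 to 7369 units with IL-1b, against 6072 to 7213 units in controls. In AcPb neurons, where no member was called, the progenitor sums were 7747 to 7890 units with IL-1b, against 6919 to 7419 units in controls, and the endothelial and mural sums 1474 to 2011 units, against 1158 to 1436 units. The neuron sums of that arm were 40711 to 40944 units with IL-1b, against 41965 to 43441 units in controls. In AcP+AcPb neurons the microglia sums were apart too, at 452 to 566 units with IL-1b, against 346 to 449 units in controls. The part of these shifts in the Socs values was not tested.

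The rest of the pathway was read from lists of its parts, with 1 probe set for each gene, its brightest. Among cytokines that signal through JAKs, 0 of 7 tested were called in any IL-1b response. Lif, an IL-6 family cytokine, averaged 39.8 ± 7.44 units with IL-1b and 21.8 ± 10.9 units without in AcP neurons, a log2 change of 0.60 ± 0.23 (limma adjusted p = 0.46). It averaged 46.4 ± 8.67 units with IL-1b and 25.5 ± 12.4 units without in AcP+AcPb neurons (log2 change 0.62 ± 0.23, limma adjusted p = 0.37). Il6, the best known inducer of Socs3, did not pass the dim filter and averaged 16.4 ± 6.44 units with IL-1b and 2.06 ± 2.60 units without in AcP neurons, with no test.

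Of 13 receptor genes tested, limma called 1 in AcP neurons and 0 in each of the other arms. It was Osmr, the oncostatin M receptor chain that pairs with gp130, with 254 ± 31.4 units with IL-1b and 123 ± 15.1 units without, a log2 change of 0.96 ± 0.17 (limma adjusted p = 0.014). Osmr was not called in AcP+AcPb neurons, at 275 ± 55.1 units with IL-1b and 263 ± 77.8 units without (0.08 ± 0.17). Il6st, which encodes gp130, averaged 425 ± 9.13 units with IL-1b and 387 ± 62.8 units without in AcP neurons (log2 change 0.14 ± 0.10, limma adjusted p = 0.79).

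Of 8 kinase and STAT genes tested, 0 were called in any IL-1b response. Stat3, the STAT downstream of gp130, averaged 901 ± 33.8 units with IL-1b and 690 ± 95.8 units without in AcP neurons (log2 change 0.39 ± 0.13, limma adjusted p = 0.32). Jak2, a kinase that SOCS proteins inhibit, averaged 567 ± 80.7 units with IL-1b and 603 ± 18.4 units without in the same neurons (-0.10 ± 0.08, limma adjusted p = 0.84).

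The partners that SOCS proteins work with gave no calls. None of 5 tested genes for ubiquitin ligase partners was called in any response, and their changes in AcP neurons ran from -0.06 to 0.05. These include Elob and Eloc, the elongins that bind the SOCS box, at -0.06 ± 0.05 and 0.05 ± 0.05, and Cul5, the cullin of the complex, at 0.02 ± 0.06. None of 10 other negative regulators of cytokine signalling, such as Ptpn6 (-0.27 ± 0.12) and Pias3 (-0.23 ± 0.14), was called in any response. None of 13 other SOCS box proteins was called in any response, and Spsb1, a SOCS box protein that targets nitric oxide synthase, differed by -0.28 ± 0.27 in AcP neurons (limma adjusted p = 0.87).

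Of 15 genes known as STAT targets, limma called 5 in AcP neurons, all higher, 4 in AcP+AcPb neurons, all higher, and 0 in AcPb and CD25 neurons. Of all probe sets tested, 0.302% were called higher in AcP neurons and 0.217% in AcP+AcPb neurons. The list was written with earlier results of these data known and takes the brightest probe set of each gene. Its counts beside these shares are therefore a description. Most of the called genes are also textbook targets of NF-kB or IL-1. Cebpd, a C/EBP transcription factor, averaged 809 ± 256 units with IL-1b and 68.2 ± 14.4 units without in AcP neurons, a log2 change of 3.26 ± 0.26 (limma adjusted p = 5e-07). Lcn2, the iron-binding protein lipocalin 2, averaged 622 ± 183 units with IL-1b and 44.8 ± 29.0 units without (3.48 ± 0.32, limma adjusted p = 3e-06). Gbp2, an interferon-inducible GTPase, averaged 347 ± 63.3 units with IL-1b and -1.85 ± 11.6 units without, and its log2 change of 4.26 ± 0.27 depends on the added 16. Irf1 rose by 1.66 ± 0.31 and Cebpb by 1.26 ± 0.13. The change of Socs3 was near that of Irf1 and Cebpb and below that of the other 3.

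**Figure D5:**
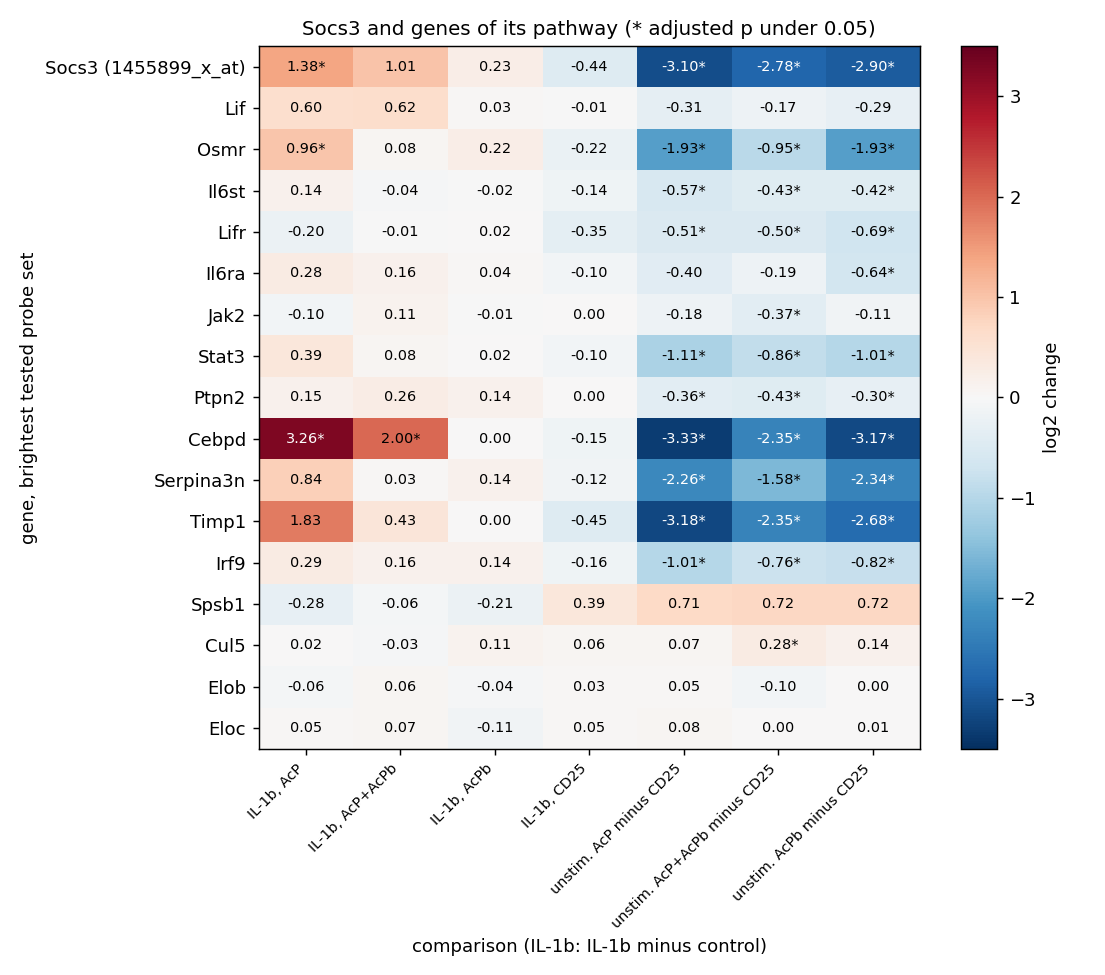
Heat map of log2 changes on log2(intensity + 16) for Socs3 and 16 genes of its pathway, with genes down the page and 7 comparisons across it. The first 4 columns are IL-1b over control in each receptor arm, the last 3 unstimulated arms minus unstimulated CD25, and a star marks an adjusted p under 0.05. Cebpd and Socs3 are red in AcP neurons, at 3.26 and 1.38, and blue in AcP minus CD25 controls, at -3.33 and -3.10.

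Without stimulus, the same lists, written with earlier results of these data known, were compared with the CD25 arm. Of the 15 STAT targets, limma called 11 lower and 2 higher in AcP, 9 lower and 1 higher in AcPb, and 11 lower and 1 higher in AcP+AcPb neurons than in CD25 neurons. Of all probe sets tested, 6.13% were called lower and 4.16% higher in AcP, 3.42% lower and 1.18% higher in AcPb, and 8.92% lower and 5.35% higher in AcP+AcPb. The medians of the STAT targets were -1.01, -0.82 and -0.76, against 0.02, 0.00 and 0.00 over all tested probe sets. Cebpd averaged 68.2 ± 14.4 units in AcP, 76.9 ± 4.30 in AcPb and 157 ± 67.3 in AcP+AcPb controls, against 823 ± 53.4 units in CD25 controls. Stat3 averaged 690 ± 95.8 units in AcP, 743 ± 76.5 in AcPb and 824 ± 91.7 in AcP+AcPb controls, against 1505 ± 113 units in CD25 controls, with limma adjusted p of 1.4e-05, 8.6e-05 and 2.1e-04. Osmr averaged 123 ± 15.1 units in AcP, 123 ± 17.0 in AcPb and 263 ± 77.8 in AcP+AcPb controls, against 511 ± 47.2 units in CD25 controls. Il6st fell by 0.57, 0.42 and 0.43 on the log2 scale in AcP, AcPb and AcP+AcPb controls, and all 3 were called. Of the 13 receptors, 3 were called lower in AcP, 4 in AcPb and 3 in AcP+AcPb, and 0 higher. Of the 8 kinases and STATs, 1 was called lower in AcP, 2 in AcPb and 2 in AcP+AcPb, and 0 higher. Of the 10 other negative regulators 2, 1 and 2 were called lower, and of the 13 other SOCS box proteins 1, 0 and 1 higher, in the same order of arms. None of the 7 ligands tested was called in these comparisons. Of the 5 ubiquitin ligase partners, Cul2 was higher in AcP controls (0.24 ± 0.06, limma adjusted p = 0.012) and Cul5 in AcP+AcPb controls (0.28 ± 0.06, adjusted p = 0.0027), while Elob and Eloc were not called. Cul2 was named after its value was seen. These comparisons share the CD25 arrays with those of Socs3.

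The genes whose 8 group means were most like those of 1455899_x_at were, in order of Pearson r on the log2 scale, Litaf (0.996), Jun (0.99), S1pr3 (0.986), Gadd45g (0.985) and Timp1 (0.983). The r is over 8 group means from the same 24 arrays and is a description. Since they were picked by this likeness, each followed Socs3 in being highest in CD25 controls and higher with IL-1b than without in AcP neurons. S1pr3, a receptor for sphingosine 1-phosphate, averaged 349.9 units with IL-1b and 87.3 units without in AcP neurons, and 711.3 units with IL-1b and 913.7 units without in CD25 neurons. Timp1, a metalloproteinase inhibitor, averaged 158.1 units with IL-1b and 37.6 units without in AcP neurons, and 346.3 units with IL-1b and 436.9 units without in CD25 neurons. Jun, a subunit of the AP-1 transcription factor, averaged 419.3 units with IL-1b and 292.1 units without in AcP neurons, and 613.2 units with IL-1b and 711.4 units without in CD25 neurons.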

How the data were processed

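RNA of 24 samples was profiled on one-colour Affymetrix mouse arrays after column extraction and Eberwine biotin labelling, per the labels' protocols. The authors deposited 1 intensity per probe set and array, on a linear scale with some values below 0. The sources used here do not state how these were summarised and scaled. Groups were taken from the sample titles. From the 45077 rows, 40 of control probes were dropped, and gene symbols came from the platform annotation, which gave 1 symbol for 34945 probe sets, several for 932 and none for 9160.

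Negative values were set to 0 and log2(intensity + 16) was modelled in limma 3.58.1 under R 4.3.3 (lmFit, then eBayes). The model had a mean for each of the 8 groups and used every one of the 24 arrays (16 residual and 1.94 prior degrees of freedom), with no further normalization. Testing required 3 or more arrays with a value over the 40th percentile of the array. P-values are two-sided and were adjusted by Benjamini-Hochberg over all tested probe sets within each of 13 comparisons. An exact permutation test of 3 arrays against 3 cannot give a p under 0.1, and none was used. The number of arrays limits the precision. The scripts were tested on simulated data.

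Every probe set of the 8 members is named or counted, and from each pathway list up to 4 genes with the largest change in AcP neurons, some fixed genes and the 5 genes most like Socs3. The members and lists were chosen with earlier results of these data known. Same-numbered arrays of the IL-1b and control groups deviated together with correlations of -0.121 to 0.194, so the replicate numbers were not taken to pair the samples.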

Additional observations from a re-analysis of the deposited data

How the results depend on the processing

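Alternatives changed 1 choice at a time, and no called result changed sign. Uncalled values of 1416576_at of Socs3 did: its CD25 response of -0.25 ran from -0.60 to 0.10, its AcPb response of 0.35 from -0.25 to 1.24, and its AcP+AcPb minus AcP difference of -0.27 from -0.88 to 0.24. Among the Socs3 results, both _x probe sets stayed called lower than in CD25 neurons under every alternative, at -3.42 to -2.24 on 1455899_x_at and -3.69 to -2.19 on 1456212_x_at. The count of called members in the AcP response, 1 of 20, was 2 with the dim filter at the 60th percentile, with the replicate block and with an intensity trend, 0 with array weights and with only the groups compared, and 0 to 2 with 1 array left out. The second probe set was 1456212_x_at. For the response of AcP minus CD25 neurons, the count of 0 became 1 with the 60th percentile filter, 1 probe set a gene, the replicate block and an intensity trend, and 0 to 2 with 1 array left out. Without stimulus, the 6 called in AcP minus CD25 became 3 with 1 probe set a gene and with array weights, 2 with only the groups compared, and 3 to 9 with 1 array left out. The 6 in AcPb minus CD25 became 2 with 1 probe set a gene and 3 with only the groups compared. The 6 in AcP+AcPb minus CD25 became 3 with 1 probe set a gene and 3 to 6 with 1 array left out. The 0 in AcPb minus AcP became 1 with the 60th percentile filter. With 1 probe set a gene only 8 member genes could be counted at most. Otherwise the cause was not tested. Over all probe sets, the 123 called in the AcP response became 50 with array weights, 48 with only the groups compared, 78 without AcP control replicate 2, 65 without AcP IL-1b replicate 2 and 322 without AcP control replicate 3. The 78 in the AcP+AcPb response became 41 when the array code entered as a block, 8 with only the groups compared, and 42 to 143 with 1 array left out. With array weights, the 3135 called in AcP minus CD25 became 1571, the 1400 in AcPb minus CD25 became 2994 and the 4347 in AcP+AcPb minus CD25 became 5770. With only the groups compared these were 569, 947 and 2680, and with 1 array left out 2017 to 5262, 839 to 974 and 2271 to 3762. The 3 called in the AcPb response became 185 with array weights and 1 to 14 with 1 array left out, and the 0 in the CD25 response 9 with only the groups compared. The 58 in the response of AcP minus CD25 became 276 without AcP control replicate 3. In unstimulated AcPb minus AcP, the 128 became 12 with array weights, 19 with array medians centred, 2 with only the groups compared and 22 to 279 with 1 array left out. In AcP+AcPb minus AcP, the 55 became 1, 24, 2 and 10 to 271 in the same order. The array code could not be fitted as a block in the unstimulated comparisons of the AcP+AcPb arm, since no code was shared with another arm. No detection calls were used here, so for the dim probe sets, such as those of Socs1, low and absent signal cannot be told apart.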
